A study of Mus musculus with 8 samples.

Results

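Krueppel-like factors are transcription factors with zinc fingers at the C-terminus that bind CACCC and GC-rich boxes in promoters. Of this family, 10 genes were followed here, chosen by symbol in the deposited count table: Klf2, Klf3, Klf4, Klf5, Klf6, Klf7, Klf9, Klf10, Klf11 and Klf13. All 10 have a row among the 56691 rows of the table, and 9 of them were among the 13812 genes with enough reads to be tested. Klf2 was not. The RNA came from organoids, 3-dimensional cultures grown from hindstomach (glandular stomach) epithelium of mouse embryos at embryonic day 18.5, kept 5 days in growth medium and then 7 days in differentiation medium. The 4 control cultures carried Shh-Cre alone (Ctrl), and the 4 others carried Shh-Cre together with YAP5SA (genotype Shh-Cre;YAP5SA). Both groups thus carry the Cre recombinase driven by Shh, a gene of foregut epithelium, and all 8 cultures had the same media and times. YAP5SA is a form of the Hippo pathway coactivator YAP that cannot be inhibited at its phosphorylation sites. The labels do not give the promoter of the transgene, nor do they say whether cultures came from separate embryos, so the p-values measure the spread between these samples only, which may be technical.

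The family works as a set of activators and repressors that compete for similar sites. In gut epithelium Klf4 is known for its expression in differentiated cells and Klf5 for its expression in proliferating cells. Klf3, with its relatives Klf8 and Klf12, recruits the co-repressor CtBP. Klf9, Klf10, Klf11, Klf13 and Klf16 recruit the co-repressor Sin3, and Klf10 and Klf11 were first described as early genes induced by TGF-beta.

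Total counts were 17387372 to 25841256 per library. Levels are in CPM, a count relative to the total of its library after scaling between libraries by the TMM method. Libraries of a group correlated at 0.982 to 0.991 on the log2 scale and libraries of different groups at 0.875 to 0.899. Yap1, whose row may also hold reads of the transgene, ranged from 107.7 to 133.3 CPM in the Ctrl libraries and was higher in all YAP5SA libraries, at 137.6 to 142.0 CPM (log2 fold change 0.25, edgeR adjusted p = 0.0111). Sex-linked transcripts split with genotype: Xist had 39949 counts in Ctrl cultures together but 14 in YAP5SA cultures, and the Y-linked Ddx3y had 0 and 9816. Genotype and these sex-linked transcripts cannot be told apart in any difference below. In bulk RNA, fewer cells of a type and less RNA per cell cannot be told apart either. Epithelial markers were abundant, with a level summed over 8 genes of 16200 to 17790 CPM per Ctrl library and 9813 to 11530 per YAP5SA library. Of these 8 genes Krt19, Krt8, Cdh1 and Elf3 fell, Epcam, Cldn4 and Cldn7 rose and Krt18 did not pass. The mitochondrial share of counts also split with genotype, at 4.43% to 5.00% in Ctrl and 5.03% to 5.75% in YAP5SA, and its part in the values below was not tested. Glandular stomach markers were present in every library, and all 8 were lower in YAP5SA.

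Klf4 and Klf3 fell and Klf10 rose in YAP5SA cultures, and the other 6 tested members did not pass the test. Klf4 dropped 7.81-fold and Klf3 2.95-fold, while Klf10 increased 1.46-fold. These 3 calls among 9 tested members compare with 64.5% of all tested genes called by edgeR (adjusted p under 0.05), 33.1% being higher and 31.3% lower. The 4 libraries of one group lay wholly above the 4 of the other for 3 of the 9 members (Klf10 higher, Klf3 and Klf4 lower), against 58.7% of all tested genes (30.4% higher and 28.3% lower). Klf3 and Klf4 were also past 2-fold, as were 25.5% of all tested genes (11.5% lower and 14.0% higher). DESeq2, fitted to the 26206 genes with a count, called the same 3 of the 10 members. It called 48.4% of the 19600 genes to which it gave an adjusted p. The median log2 fold change of the 9 members tested by edgeR was -0.15, against 0.017 for all tested genes. Their median absolute change was 0.19 against 0.52. Without Ctrl replicate 1 the members called were 5, with 1 higher and 4 lower, since Klf6 and Klf11 then passed as well, beside 63.7% of all genes tested in that fit. With no filter on low counts 5 of 10 were called, Klf11 and Klf2 being added, beside 37.1% of 26206 genes. Scaling by library size alone shifted the median of all genes from 0.017 to 0.19 on the log2 scale and that of the members from -0.15 to 0.025. It gave 2 members higher and 2 lower, Klf13 being added, while 64.7% of all tested genes were called (41.6% higher and 23.2% lower).

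**Figure D1:**
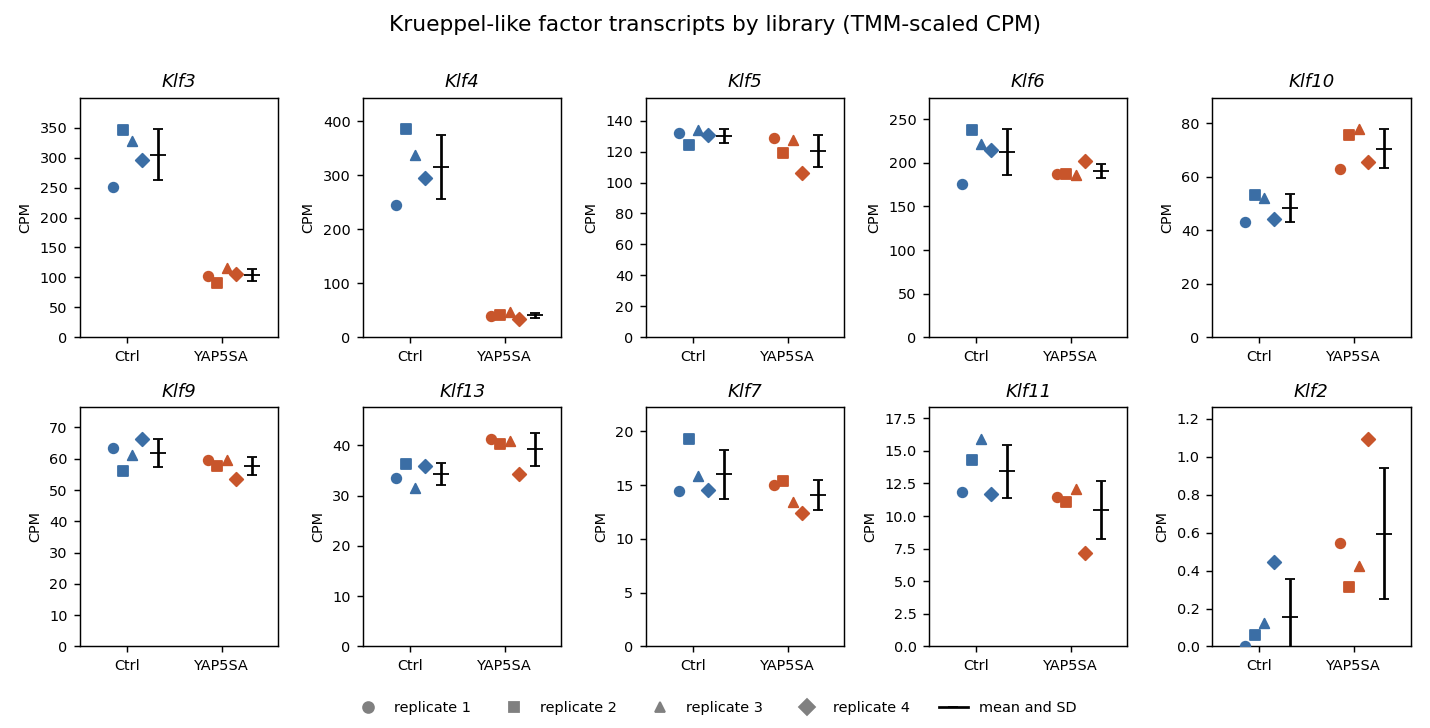
Level of each of the 10 members in CPM (vertical axes, linear and starting at 0) in the 4 Ctrl and 4 YAP5SA libraries. Each symbol is 1 library, with the mean and SD beside it (for Klf2 the Ctrl bar reaches below 0 and is clipped there). Klf3 and Klf4 are lower and Klf10 higher in all 4 YAP5SA libraries than in any Ctrl library, and the other panels overlap.

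The 250 bases before the annotated starts of Klf4 and Klf3 are shown because these are the members that fell. They come from RefSeq on GRCm38.p6, a build other than the mm9 named in the submitters' processing notes, and are written 5′ to 3′ on the strand of the gene. For Klf4 (chr4:55532476-55532725, minus strand) capitals mark the GC box GGGCGG on either strand, where neighbouring boxes can share bases. For Klf3 (chr5:64803271-64803520, plus strand) capitals mark the CACCC box on either strand.
Klf4: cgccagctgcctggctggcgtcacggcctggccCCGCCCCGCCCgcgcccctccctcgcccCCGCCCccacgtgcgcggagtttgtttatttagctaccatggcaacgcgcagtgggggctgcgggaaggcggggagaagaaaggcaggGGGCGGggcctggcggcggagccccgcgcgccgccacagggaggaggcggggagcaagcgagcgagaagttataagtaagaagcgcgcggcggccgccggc
Klf3: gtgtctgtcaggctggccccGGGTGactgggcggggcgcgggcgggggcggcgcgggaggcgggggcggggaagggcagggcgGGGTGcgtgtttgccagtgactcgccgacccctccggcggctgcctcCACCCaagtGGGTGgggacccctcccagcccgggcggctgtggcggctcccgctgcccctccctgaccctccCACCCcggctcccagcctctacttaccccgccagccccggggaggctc
The Klf3 stretch held 5 CACCC boxes, a count of 5 or more that 0.667% of 32851 RefSeq windows of the same length reached, and 6 GC boxes, reached by 0.886%. Of the 5 CACCC boxes, 1 shares bases with a GC box. The Klf4 stretch held 0 CACCC boxes and 4 GC boxes, of which 2 share bases, a count reached by 4.09% of windows. The share of G and C was 74.0% for Klf4 and 78.4% for Klf3, against a median of 52.4% over all windows. The other 6 members with a window also lay above that median, at 59.2% for Klf7 to 76.8% for Klf11, which was not called and, like Klf4, held 4 GC boxes. RefSeq windows were at hand for 8 of the 10 members, all but Klf5 and Klf10. A CACCC box was found in 5 of these 8 (52.0% of all windows) and a GC box in 7 of 8 (32.7%). The TEAD box CATTCC, the motif of YAP's DNA-binding partners, was found on either strand in 0 of 8 windows (12.6% of all windows), and the AP-1 site TGANTCA in 1 of 8, that of Klf9 (6.75%). These are letter matches only, in a short window.

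Among the activators, Klf4 was the tested member that passed. Klf4, a factor of differentiated barrier epithelium, stood at 245, 385, 337 and 295 CPM in the Ctrl libraries (replicates 1 to 4, the order of all values given in this way). The YAP5SA libraries had 39.6, 40.7, 47.0 and 34.4 CPM. The groups do not overlap, and the spread within each is small beside the gap between them. The log2 fold change was -2.97 (SE 0.14, 95% interval -3.26 to -2.67, edgeR adjusted p = 3.20e-10), which places Klf4 at rank 663 of 13812 genes by absolute change. It held when each library was left out, at -3.10 to -2.88, and when tested against a change of 1 log2 unit rather than 0 (edgeR adjusted p = 6.14e-09), a test that 16.1% of all genes passed. Markers of the glandular stomach moved with Klf4: their summed level was 37460 to 61850 CPM per Ctrl library and 4115 to 5803 per YAP5SA library, with a median log2 fold change of -2.75. Markers of squamous epithelium, where Klf4 is also abundant, summed to 206 to 289 CPM and 25.1 to 42.0 CPM, with 3 of 5 tested genes lower. Most of that sum was the cornified envelope gene Ivl (a mean of 232.9 CPM in Ctrl and 27.4 in YAP5SA), and Trp63, a defining gene of squamous cells, had 1 count in all. The part of these markers in the result was not tested.

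Klf5, a factor of proliferating epithelium, had 132, 124, 134 and 130.5 CPM in the Ctrl libraries. The YAP5SA libraries had 128.5, 119, 127 and 106 CPM. The groups overlap, and YAP5SA replicate 4 was the lowest of the 8. Its log2 fold change was -0.11 (95% interval -0.28 to 0.05, edgeR adjusted p = 0.208), and 0.064 with scaling by library size. Within a library, the log2 ratio of Klf5 to Klf4 counts was -1.26 ± 0.31 in Ctrl and 1.58 ± 0.11 in YAP5SA (SD, n = 4 each). The difference of 2.84 mostly restates the fall of Klf4, as Klf5 was not called.

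Klf6, a widely expressed activator that many stimuli induce quickly, had 175, 237, 221 and 215 CPM in the Ctrl libraries, then 187, 187, 186 and 202.5 CPM in the YAP5SA libraries. Ctrl replicate 1 lay below all YAP5SA libraries and the other 3 Ctrl libraries above them. The log2 fold change of -0.15 (95% interval -0.34 to 0.04, edgeR adjusted p = 0.142) became -0.26 and passed the test without Ctrl replicate 1 (adjusted p = 0.00545). With scaling by library size it was 0.025. The related Klf7, best known from neurons, ranged from 14.4 to 19.3 CPM across Ctrl cultures and from 12.4 to 15.4 CPM across YAP5SA cultures. Its log2 fold change of -0.19 did not pass (95% interval -0.46 to 0.08, adjusted p = 0.200).

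Klf2, a factor of blood vessel lining and resting T cells, was close to the floor of detection. It had 0, 1, 3 and 8 counts in the Ctrl libraries, against 12, 6, 8 and 24 in the YAP5SA libraries. The count of 0 in Ctrl replicate 1 allows up to 3 counts there, or 0.169 CPM, for counting error only. The means were 0.158 ± 0.199 and 0.595 ± 0.347 CPM (SD, n = 4 each), and Ctrl replicate 4 lay above YAP5SA replicates 2 and 3. The difference of 0.437 CPM had an exact two-sided permutation p = 0.0857, where 0.0286 is the smallest p that 4 against 4 libraries can give, and was 0.27 CPM without YAP5SA replicate 4. With counts pooled over each group and no TMM scaling, the ratio of counts per total was 4.4 (95% counting interval 2.31 to 9.07). That interval holds counting error only and leaves out the spread between libraries. With no filter on low counts edgeR gave a log2 fold change of 1.88 (adjusted p = 0.0175) and DESeq2 gave 1.91 (adjusted p = 0.0507). Markers of endothelium, where Klf2 is typical, summed over 8 genes to 0.950 to 2.13 CPM per Ctrl library and 1.04 to 1.28 per YAP5SA library. Within that sum Cdh5 (44 counts over Ctrl and 5 over YAP5SA) and Tek (58 and 16) were lower in YAP5SA, while Vwf (23 and 62) was higher. Pecam1 had 6 and 4 counts, Kdr 1 and 6, Tie1 0 and 4 and Emcn 1 and 0, with Cldn5 at 0 throughout. Leukocyte markers summed to 8.74 to 18.2 CPM per Ctrl library but 68.1 to 74.3 per YAP5SA library, through Csf1r, Cd68 and Lyz2, the 3 of the 8 that were tested and all higher. Of the defining leukocyte genes, Tyrobp had 0 counts in every library and Ptprc had 15 counts over Ctrl and 3 over YAP5SA. Itgam had 5 and 53, Cd3e 4 and 0 and Cd79a 1 and 1. The sum of mesenchyme markers was low but higher in YAP5SA libraries (0.391 to 0.751 CPM, then 1.05 to 1.68 CPM). That rise came through Myh11 (5 and 54 counts), Pdgfra (8 and 36) and Pdgfrb (2 and 20). Col1a1 (9 and 4), Des (14 and 9), Dcn (3 and 0) and Col3a1 (1 and 0) went the other way, and Col1a2 and Lum were at 0. Markers of neurons and glia were lower in YAP5SA libraries (1.34 to 2.13 CPM, then 0.426 to 0.780 CPM), and erythroid markers were at or under 0.447 CPM. The part of these markers in the Klf2 value was not tested.

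Among the CtBP-recruiting repressors, Klf3 had 251, 347, 328.5 and 296 CPM in the Ctrl libraries, but 102, 91.0, 115 and 106 CPM in the YAP5SA libraries. No YAP5SA library came near the lowest Ctrl library. The log2 fold change was -1.56 (SE 0.10, 95% interval -1.78 to -1.34, edgeR adjusted p = 1.51e-08), and the call held when each library was left out. Within Ctrl, Klf3, Klf4 and Klf6 shared 1 order, with replicate 1 lowest and then 4, 3 and 2. In GENCODE M21 the antisense gene Gm20033 overlaps exons of Klf3. It had 17 counts over Ctrl and 35 over YAP5SA, few beside the 23472 and 8488 of Klf3.

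The relative Klf12, a repressor outside the 10 members, moved the other way. It had 10, 17, 20 and 13 counts in the Ctrl libraries, against 134, 79, 94 and 102 in the YAP5SA libraries, with no overlap. The log2 fold change was 2.66 (SE 0.25, edgeR adjusted p = 5.23e-07). Klf8, the remaining relative and a gene that Klf3 is known to repress, had 11 and 4 counts and was not tested. Even after its rise Klf12 stayed low: per kb of its longest transcript it was at 0.843 CPM in YAP5SA, against 19.9 for Klf3.

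Of the Sin3-recruiting members Klf10 alone passed the test. Klf10 had 43.3, 53.3, 52.1 and 44.1 CPM in the Ctrl libraries, and 62.9, 75.6, 77.7 and 65.6 CPM in the YAP5SA libraries. All YAP5SA libraries were above all Ctrl libraries. The log2 fold change was 0.55 (SE 0.10, 95% interval 0.34 to 0.76, edgeR adjusted p = 0.000221), and 0.47 to 0.59 when each library was left out. Tested against a change of 1 log2 unit it did not pass (edgeR adjusted p = 1).

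Its closest relative Klf11 was not called. Klf11 had 11.8, 14.3, 15.9 and 11.7 CPM in the Ctrl libraries, and 11.5, 11.1, 12.04 and 7.16 CPM in the YAP5SA libraries. The groups overlap, with YAP5SA replicate 4 lowest. The log2 fold change was -0.37 (95% interval -0.73 to -0.01, edgeR adjusted p = 0.0703). It passed the test without Ctrl replicate 1 (-0.45, adjusted p = 0.0408) or without Ctrl replicate 4 (-0.45, adjusted p = 0.0401), and was -0.23 without YAP5SA replicate 4 (adjusted p = 0.166). Within a library, the log2 ratio of Klf10 to Klf11 counts was 1.85 ± 0.10 in Ctrl and 2.78 ± 0.31 in YAP5SA (SD, n = 4 each).

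Klf9, a target of glucocorticoid and thyroid hormone receptors, ranged from 56.2 to 66.4 CPM across Ctrl cultures and from 53.4 to 59.5 CPM across YAP5SA cultures. Its log2 fold change was -0.10 (95% interval -0.27 to 0.06, edgeR adjusted p = 0.257), and 0.071 with scaling by library size. Klf13, a close relative of Klf9, ranged from 31.5 to 36.3 CPM in Ctrl. In YAP5SA it was at 41.3, 40.3 and 40.9 CPM in replicates 1 to 3 and at 34.2 CPM in replicate 4, the 1 library that overlaps Ctrl. Its log2 fold change was 0.19 (95% interval -0.0015 to 0.39, edgeR adjusted p = 0.0762). Klf13 passed the test without YAP5SA replicate 4 (0.25, adjusted p = 0.0220) and with scaling by library size (0.37, adjusted p = 0.00349). Klf16, a further Sin3-recruiting relative outside the members, fell from 20.4 ± 2.23 to 14.5 ± 1.58 CPM (SD, n = 4 each; log2 fold change -0.49, edgeR adjusted p = 0.00238).

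**Figure D2:**
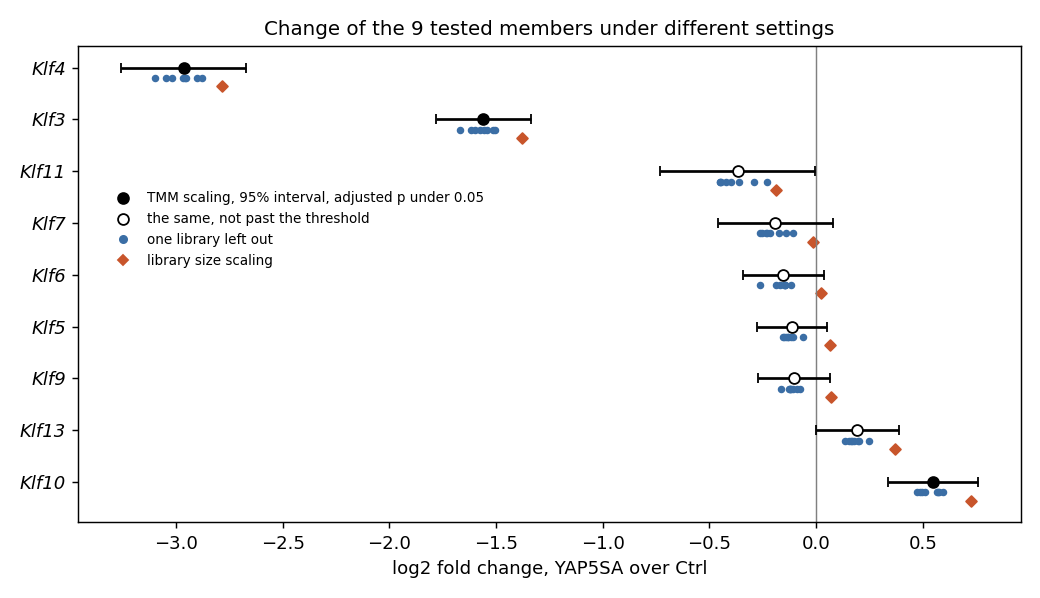
Log2 fold change of the 9 tested members, YAP5SA over Ctrl (horizontal axis). Circles with bars are the edgeR values with TMM scaling and their 95% interval, filled where the adjusted p was under 0.05, small dots are the values with 1 library left out, and diamonds those with scaling by library size. Klf4 at -2.97, Klf3 at -1.56 and Klf10 at 0.55 stand clear of 0 in each of these, and Klf5, Klf6 and Klf9 lie on either side of 0 depending on the scaling.

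Per length of transcript, the order of the members changed between the groups. In Ctrl, CPM per kb of the longest GENCODE M21 transcript was 104 ± 19.8 for Klf4, 58.5 ± 8.07 for Klf3, 50.2 ± 6.22 for Klf6 and 38.8 ± 1.28 for Klf5 (SD, n = 4 each). Klf3 and Klf6 overlap in range, as do Klf10 (15.8 ± 1.72) and Klf9 (13.8 ± 0.970), while Klf13, Klf11, Klf7 and Klf2 followed in that order from 5.36 to 0.0854. In YAP5SA the order was Klf6 (45.2 ± 1.85), Klf5 (35.9 ± 3.06), Klf10 (23.2 ± 2.40), Klf3 (19.9 ± 1.93), Klf4 (13.3 ± 1.70) and Klf9 (12.8 ± 0.639), with Klf13 to Klf2 below as in Ctrl. There the range of Klf10 overlaps that of Klf3 and the range of Klf4 that of Klf9, and Klf6 is separate from Klf5. Compared within each library, Klf3 was above Klf6 throughout Ctrl and Klf10 above Klf3 throughout YAP5SA. The order of Klf10 and Klf9 varied between Ctrl libraries, and that of Klf4 and Klf9 between YAP5SA libraries. Klf4 went from 35.4% ± 2.63 to 8.26% ± 0.727 of the summed level of the 10 members, and Klf6 from 17.2% ± 0.515 to 28.1% ± 2.16 (SD, n = 4 each). The sum itself was 292 ± 34.6 in Ctrl and 161 ± 6.53 in YAP5SA. The annotated length matters here: with the median length over protein-coding transcripts, which include partial ones, Klf4 was still first in Ctrl, but Klf3 was first in YAP5SA and Klf13 the second.

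**Figure D3:**
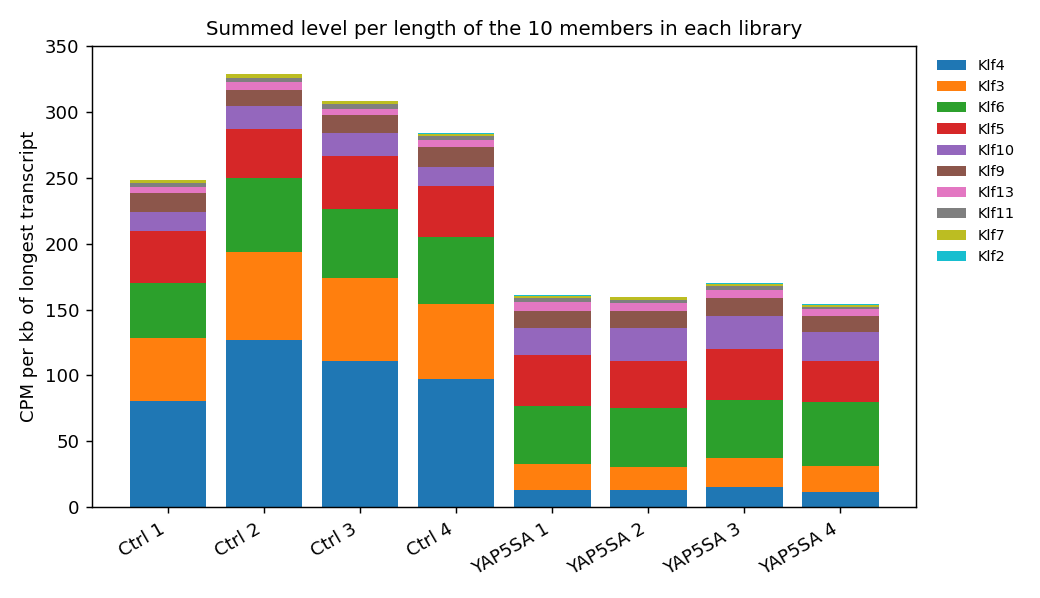
Level of the 10 members in each of the 8 libraries as stacked bars, in CPM per kb of the longest GENCODE M21 transcript (vertical axis from 0). The 4 Ctrl bars reach 248 to 328 and the 4 YAP5SA bars 154 to 170, with most of the difference in the Klf4 and Klf3 segments.

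The other Krueppel-like factor and Sp genes were 16 in number, of which 8 could be tested. Klf15 and Klf12 rose, Klf16 and Sp2 fell and 4 did not pass, with a median log2 fold change of 0.024. With scaling by library size 3 were higher and 1 lower. Counts in this list and the lists below stand beside 33.1% higher and 31.3% lower of all tested genes. With scaling by library size these shares were 41.6% and 23.2%. Klf15, a factor of metabolic control in liver, muscle and kidney, had 24 counts over Ctrl and 440 over YAP5SA. Its level went from 0.309 ± 0.173 to 5.39 ± 0.333 CPM (SD, n = 4 each; log2 fold change 4.08, SE 0.33, edgeR adjusted p = 9.55e-08), rank 300 by absolute change. Sp2 was at -0.46 (edgeR adjusted p = 0.0370), and its call ended without Ctrl replicate 1 or 3, without YAP5SA replicate 1, 2 or 3, with the replicate number as a block, with no filter and with scaling by upper quartile or library size. The general factors Sp1 and Sp3, which bind the same GC boxes, were at 0.18 (adjusted p = 0.0607) and -0.13 (adjusted p = 0.230). Sp1 did not overlap between the groups, at 92.9 to 116.0 CPM in Ctrl and 116.4 to 122.2 CPM in YAP5SA. It passed with scaling by upper quartile or library size, with the replicate block and without Ctrl replicate 2. Sp3 passed without Ctrl replicate 1. Sp4 and Sp5 did not pass either (0.38, adjusted p = 0.179, and -0.28, adjusted p = 0.222), though Sp4 did without YAP5SA replicate 4. Klf1 of red cells had 13 counts over Ctrl and 5 over YAP5SA, Sp9 had 11 and 5, and Klf14, Klf17, Sp6 and Sp7 had at most 5 in all libraries together. Sp8 had 0.

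Partners of the family shifted in both directions. Of 15 genes for co-repressors and coactivators, 10 were lower, 3 higher and 2 not called, with a median of -0.38 against 0.017 for all tested genes. With scaling by library size 8 were lower and 3 higher, with a median of -0.20 against 0.19 for all tested genes. The acetyltransferase genes Kat2a (-1.08, SE 0.12) and Kat2b (-0.62, SE 0.09) fell, as did the acetyltransferase genes Ep300 (-0.51) and Crebbp (-0.85), and the scaffold gene Sin3b rose by 0.90 (SE 0.12). Sin3a, at -0.062, did not pass (edgeR adjusted p = 0.593), nor did Ctbp2 at -0.093 (adjusted p = 0.315). With scaling by library size these were 0.11 and 0.080. Ctbp1 was at -0.32 (adjusted p = 0.0101), a call that ended with scaling by library size. Ubiquitin ligases known to act on these factors were higher in 3, lower in 3 and not called in 3 of 9, or 5 higher and 3 lower with scaling by library size. Wwp1, which acts on Klf2 and Klf5 proteins, rose by 0.89 (SE 0.08), and Fbxo32 fell by 0.75 and Smurf1 fell by 0.51 on the log2 scale.

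Genes that lie upstream were taken from general knowledge of the family. The TGF-beta route to Klf10 and Klf11 was higher in 5, lower in 3 and not called in 1 of 9 tested genes, with a median of 0.71 (6 higher and 2 lower with scaling by library size). The ligand gene Tgfb2 rose from 20 counts over Ctrl to 4273 over YAP5SA (log2 fold change 7.60, SE 0.19). Tgfb1 rose by 1.44 (SE 0.14), the receptor gene Tgfbr2 by 0.87 (SE 0.07), Smad7 by 0.89 and Smad3 by 0.71. The 3 lower genes were Tgfb3 (-0.69), Tgfbr1 (-0.45) and Smad2 (-0.20). Smad2 lost its call with scaling by upper quartile or library size, with no filter, and without Ctrl replicate 4 or YAP5SA replicate 2. For the ERK5 and MEF2 route to Klf2 and Klf4, 1 of 6 was higher, 2 were lower and 3 were not called (3 higher and 2 lower with scaling by library size). Mef2d fell by 0.95 and Mef2a fell by 0.63 on the log2 scale, Map3k3 rose by 0.76, and Mef2c had 0 counts in every library. Of the receptors that act on Klf9, the glucocorticoid receptor gene Nr3c1 rose by 0.82 (SE 0.12), while Thrb was at -1.21 (SE 0.31). Nr3c2, at -0.70, lost its call without Ctrl replicate 2 and with scaling by library size. Thra, at 0.38, lost its call without any 1 of 6 of the libraries.

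Among 20 genes known as targets of Krueppel-like factors, 15 were tested, and 10 were higher, 3 lower and 2 not called, with a median of 1.11. Of all tested genes 33.1% were higher and 31.3% lower, with a median of 0.017. The list mixes genes that these factors activate with genes that they repress, so its counts and median cannot show a common response. The cell cycle inhibitor gene Cdkn1a, which Klf4 and Klf6 activate, fell by 0.94 (SE 0.09) and the keratin gene Krt19 fell by 1.03 (SE 0.07) on the log2 scale. Plau, a protease gene, rose by 3.89 (SE 0.16), the keratin gene Krt4 by 3.04 (SE 0.17) and the thrombomodulin gene Thbd by 2.49 (SE 0.15). The cyclin gene Ccnd1, which Klf4 represses and Klf5 activates, was at -0.20 (edgeR adjusted p = 0.164) and passed without Ctrl replicate 2 (adjusted p = 0.0404) and with no filter (adjusted p = 0.0382), while Ccnb1 and Cdk1 rose by 1.34 and 1.83. Several members are also early response genes, and 14 immediate early and stress genes were read beside them: 5 were higher, 3 lower and 6 not called, with a median of 0.0080. Dusp1 rose by 3.35 and Ier3 by 0.95, and Ier2 fell by 1.02 on the log2 scale. The part of these genes in the values of Klf4, Klf6 and Klf10 was not tested.

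**Figure D4:**
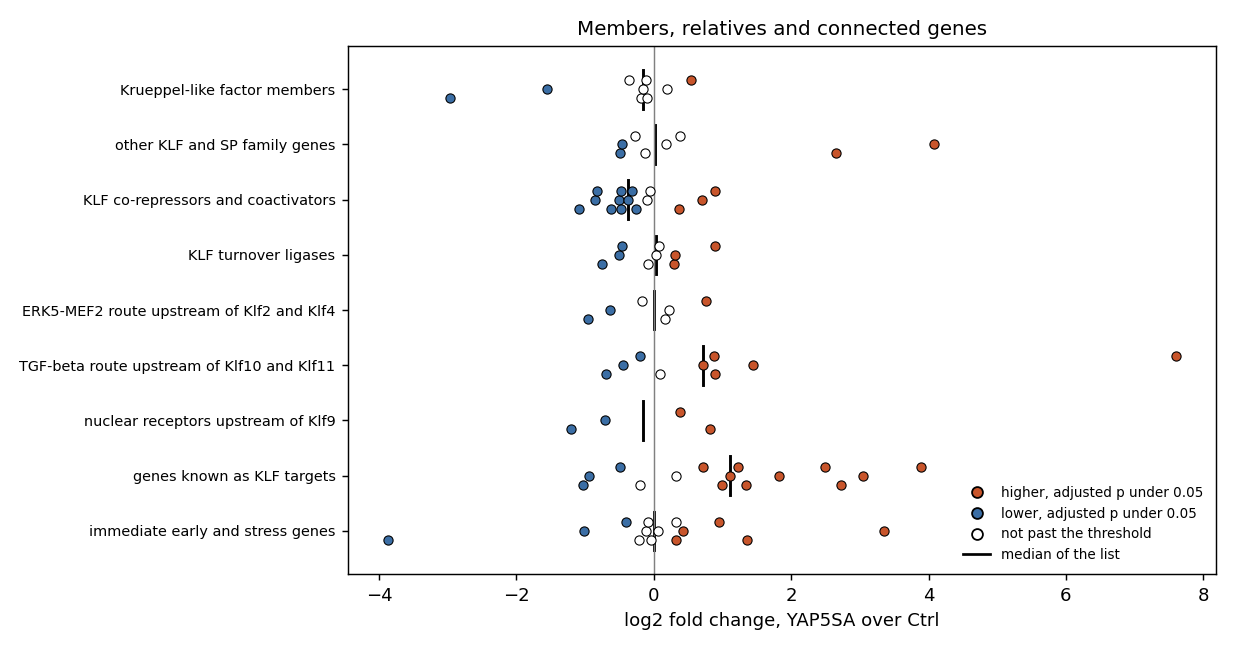
Log2 fold change, YAP5SA over Ctrl (horizontal axis), of every tested gene in the 9 lists (rows). Each circle is a gene, filled where the edgeR adjusted p was under 0.05, spread vertically only for legibility, with a black bar at the median of the list. The members have 3 filled circles of 9, and the targets list has its median at 1.11.

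Across the 8 libraries, the genes most like Klf4 in log2 CPM were Abcd3, Slc9a4 and Tgoln1, with Pearson r of 0.999 for each, out of 7107 genes compared. The 8 points fall into 2 groups by genotype, so these r values describe mainly the difference between groups. Those 3 genes had log2 fold changes of -1.88, -2.93 and -0.67. The genes most like Klf5, whose groups overlap, were Zcchc7, Meak7 and Vps8 with r of 0.958, 0.936 and 0.907. Their log2 fold changes were -0.21, -0.21 and -0.55. These r values take in differences between groups as well as within them, and are the highest of the 7107 genes.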

How the data were processed

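The authors deposited a table of raw counts of reads for each gene, without normalization. The submitters' processing notes name cutadapt, HISAT2 2.0.1, HTSeq 0.6.1 and build mm9. The annotation used, strandedness of counting and filters were not given in the sources used here. A total of 17387372 to 25841256 counts puts 3 counts at 0.125 to 0.178 CPM.

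Genes were kept by filterByExpr (minimum count 10, minimum total 15) and tested in R 4.3.3 with edgeR 4.0.16, with TMM factors of 0.92 to 1.08. The quasi-likelihood F test compared the 4 YAP5SA with the 4 Ctrl libraries, two-sided, with Benjamini-Hochberg adjustment over 13812 genes and a threshold of 0.05. An SE is the log2 fold change over the square root of F. The procedure was also run on simulated counts with few changed genes. In these data 64.5% of tested genes were called, so that run does not show how the procedure performs here. Libraries of a group differed by a chi-square per degree of freedom of 4.69 to 34.9, so none was a copy.

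The members and gene lists were chosen with earlier results of these data known. Genes named are all members, other Klf and Sp genes with at least 10 counts, the 3 with the smallest p of each list, and the 3 most like Klf4 and Klf5 (among named genes with a mean log2 CPM of 4 or more). Ep300, Crebbp, Sin3a, Ctbp1, Ctbp2, Thra, Mef2c, Tgfb3, Tgfbr1, Smad2, Smad3 and Smad7 were chosen after their values were seen. So were Cdkn1a, Krt19, Ccnd1, Ccnb1, Cdk1, the markers named and the Klf and Sp genes under 10 counts. Yap1, Xist and Ddx3y, which describe the samples, and Gm20033, which overlaps Klf3, were also named outside the planned lists. The ratios of Klf5 to Klf4 and of Klf10 to Klf11 were not among the planned results. Alternatives were scaling by RLE, upper quartile or library size, no filter, a filter of 1 CPM in 4 libraries, DESeq2 1.42.0, limma-voom (limma 3.58.1), a replicate block, a minimum effect of 1 log2 unit, leaving out genes above 1% of a library, and leaving out each library. Protein sequences were not used here.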

Additional observations from a re-analysis of the deposited data

Results flagged for a closer look

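In 2 of 42 groups of 4 libraries examined over the family, 1 library stood far from its group by Dixon's criterion, a share that chance alone gives in about 1 of 20 groups. Both times it was YAP5SA replicate 4. Klf6 was at 202.5 CPM there, against 186 to 187 CPM in the other 3 YAP5SA libraries. Klf13 was at 34.2 CPM there, against 40.3 to 41.3 CPM in the other 3.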

How the results depend on the processing

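Klf4, Klf3 and Klf10 kept their direction and call under every alternative run, except that Klf10 (0.55) did not exceed the minimum effect of 1 log2 unit (adjusted p = 1), under which 2221 genes were called. Scaling by library size turned Klf5 to 0.064, Klf6 to 0.025 and Klf9 to 0.071, none past the threshold, and brought in Klf13 (0.37), as did upper quartile scaling (0.25). Of all tested genes, library size scaling gave 5742 higher and 3201 lower, against 4577 and 4330 with TMM. With no filter 5 members were called, Klf11 (-0.37) and Klf2 being added, and 9716 of 26206 genes. The replicate block added Klf11 (-0.37), for 4 members, and moved the genes called from 8907 to 9174. Same-numbered libraries deviated together at r of 0.0463 to 0.281, and not every library matched its own number best, so the numbers were not taken as pairs. With each library left out, members called were 3 to 5, genes called 8299 to 8972, Klf6 -0.26 to -0.12, Klf11 -0.45 to -0.23, Klf13 0.14 to 0.25 and the Klf2 difference 0.27 to 0.533 CPM. The cause was not tested where a call changed. Depth limits Klf2, Klf1 and Klf8, which were under the filter.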

Other observations

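YAP5SA replicate 4 was also the lowest of the 8 libraries for Klf4 (34.4 CPM), Klf5 (106 CPM), Klf7 (12.4 CPM), Klf9 (53.4 CPM) and Klf11 (7.16 CPM), and the highest for Klf2 (1.09 CPM). Without it Klf4 was at -2.90 and Klf11 at -0.23 on the log2 scale.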
